A study of Mus musculus with 8 samples.

Results

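The genes described here lie on both sides of *Kdm1a* on mouse chromosome 4. The list holds 57 genes, and its rule uses position and no measured value. It was drawn up with earlier results of these data known, and it leaves out other genes of the same stretch. Of these, 52 had 107 probe sets annotated to them and to no other gene, out of 18195 genes with 34958 such probe sets on the array. *Ephb2*, *Tmem50a* and *Rps6ka1* had no annotated probe set in the table used here. *Mrto4* and *Hmgn2* were found only in probe sets shared with other genes, so none of these 5 genes was measured on its own. Proximal to *Kdm1a*, that is toward the centromere, lay 24 of the measured genes with 51 probe sets. Distal to it lay 28 genes with 56 probe sets. Distance is given in steps of gene order, where 1 step is 1 gene that the array measures with a probe set of its own. The list runs from *Nudc*, 62 steps proximal, to *Spen*, 75 steps distal, and 85 further genes with 139 probe sets lie between these ends without being listed.

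Whole hearts of mice were taken at E18.5, 5 from wild-type embryos and 3 from embryos of genotype 2lox/2lox. Total RNA of 1 heart was hybridized to each Affymetrix Mouse430 array. The 2lox allele of *Kdm1a*, the gene for the histone demethylase Lsd1, carries loxP sites that were not recombined, together with point mutations in the tower domain that entered with the targeting vector. The labels call these hearts Lsd1 knock-out, whereas the study describes the allele as hypomorphic, so a mutated protein is still made. The study calls the animals littermates. Sex, litter and breeding strain of each heart are not given in the sources used here, and p-values measure the spread between these hearts.

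Lsd1 removes methyl groups from lysines of histone H3 and works in complexes such as CoREST, where it is known mainly as a repressor of transcription. A gene altered by targeting in embryonic stem cells is passed on together with the chromosome around it until recombination separates them. Neighbours of a targeted gene can therefore differ between mutant and control animals in their DNA sequence as well as in their expression. The listed neighbours have unrelated functions, among them actin and GTPase regulation, RNA binding, ubiquitin transfer, lysosomal enzymes and muscle proteins. The DNA sequence of these animals was not analysed here, and inherited sequence and altered Lsd1 cannot be told apart in this design.

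*Kdm1a* was measured by a pair of probe sets, and both were lower in all 2lox/2lox hearts than in any wild-type heart. On the log2 scale, its brighter probe set (1426762_s_at) read 10.36, 10.34, 10.29, 10.32 and 10.26 in the wild-type hearts and 9.44, 9.53 and 9.55 in the 2lox/2lox hearts. The difference was -0.81 (standard error 0.06, limma adjusted p = 5.15e-04). Its other probe set (1426761_at) differed by -0.83 (standard error 0.07, limma adjusted p = 0.00176). The 8 cardiomyocyte markers had a list mean of 12.64 to 12.67 in wild-type and 12.63 to 12.73 in 2lox/2lox hearts. By limma none of them passed, and 2 were at an unadjusted p under 0.05.

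Some hearts stood apart in measures that bear on the values below. The *Actb* and *Gapdh* control probe sets gave a 3′ minus 5′ difference, a measure of RNA integrity and labelling, of 0.52 and 0.50 in 2lox/2lox hearts 1 and 2. It was 0.33 in 2lox/2lox heart 3 and 0.32 to 0.38 in the wild-type hearts. *Xist*, the transcript of the inactive X chromosome, was high in heart 3 of the 2lox/2lox group (10.88) and heart 2 of the wild-type group (10.59), against 4.61 to 4.94 in the others. The mean of Y-linked genes minus *Xist* was -7.25 and -6.98 in these hearts, the pattern of females. It was 2.06 to 2.68 in the others, the pattern of males. All 10 macrophage and myeloid markers had a positive difference. Their list mean was 6.43 to 6.81 in wild-type and 6.90 to 7.22 in 2lox/2lox hearts, *Cybb* and *Lgals3* passed the test, and 7 were at an unadjusted p under 0.05. Of 6 skeletal muscle markers *Tnni2* passed, at 1.32 (limma adjusted p = 0.024), with list means of 6.49 to 7.32 in wild-type and 6.93 to 7.14 in 2lox/2lox hearts. By limma no erythroid, endothelial, lung or thymocyte marker passed, and 1 endothelial marker was at an unadjusted p under 0.05. The part of these markers in the results below was not tested. In whole hearts, fewer cells of a type and less RNA per cell cannot be told apart.

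Among the 107 probe sets of the listed genes, 2 passed the limma threshold of an adjusted p of 0.05, and both were lower in the 2lox/2lox hearts. Of all 45101 probe sets 0.0798% passed, and 0.0177% passed as lower. That these genes pass was known when the list was drawn up, so the count of 2 is a description. At an unadjusted p under 0.05, 23 of the 107 differed (21.5%), from 18 genes, against a background of 10.9%. Of these, 15 were higher (background 5.97%) and 8 were lower (background 4.94%). At an unadjusted p under 0.001 there were 4 (3.74%), against 0.503% of all probe sets. In 14 (13.1%) the 2lox/2lox hearts lay wholly outside the wild-type range, 8 above and 6 below, against 6.11% of all probe sets. The 2 that passed are among the 23, the 4 and the 14, so these counts too include genes known beforehand.

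The listed genes did not shift in a common direction. Their differences were positive in 53 and negative in 54 probe sets, with a median of -0.01. The size of the differences was larger than over the array, with a median absolute log2 difference of 0.10 against 0.07 and a 90th percentile of 0.32 against 0.21. An absolute difference above 0.2 was found in 21.5% of the listed probe sets and in 11.3% of all. The spread between hearts of a group was close to that of the array, with a median SD of 0.11 in either group against 0.10. Many listed genes are well expressed, and 89 of the 107 probe sets had a mean above the median of all. Among these, 22.5% reached an unadjusted p under 0.05, against 15.5% of all probe sets that bright. The sizes also lay closer in the median, at 0.104 against 0.087, with a 90th percentile of 0.41 against 0.27. An absolute difference above 0.2 was found in 23.6% of these listed probe sets and in 17.5% of all that bright. With the brightest probe set of each gene alone, 2 of 52 passed (background 0.148%) and 11 (21.2%) were at an unadjusted p under 0.05 (background 10.2%).

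**Figure D1:**
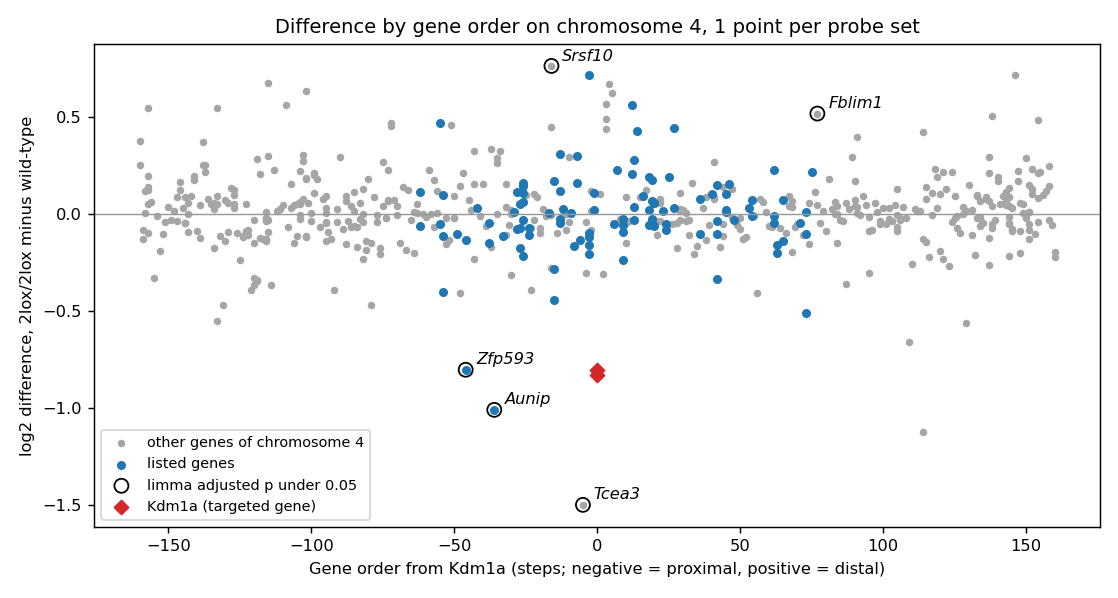
Log2 difference (2lox/2lox minus wild-type, vertical axis) of each probe set against gene order from *Kdm1a* in steps (horizontal axis, proximal negative), with listed genes in blue, other genes of chromosome 4 in grey, *Kdm1a* as red diamonds and a ring around each probe set with a limma adjusted p under 0.05. *Aunip* at -1.01 and *Zfp593* at -0.80 are the ringed listed genes, and listed points lie on both sides of 0 along the whole interval.

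Differences were more frequent on the proximal side. There 13 of 51 listed probe sets (25.5%) were at an unadjusted p under 0.05. Under 0.001 were 4 (7.84%, background 0.503%), including the 2 that passed the adjusted threshold. In 10 (19.6%) the groups did not overlap, against 6.11% of all probe sets. Distally, 10 of 56 (17.9%) were at an unadjusted p under 0.05 and none was under 0.001. In 4 the groups did not overlap (7.14%, close to the background of 6.11%), all with the 2lox/2lox hearts above. The difference between the sides was not tested. Over all genes of chromosome 4 other than *Kdm1a*, the share at an unadjusted p under 0.05 was 28.6% at 1 to 20 proximal steps, 22.5% at 21 to 40, 31.2% at 41 to 80 and 23.3% at 81 to 160, and 11.8% beyond that up to 320 steps. On the distal side it was 28.2% at 1 to 20 steps, then 6.06%, 11.1%, 10.5% and 15.5% in the blocks that followed. The first distal block includes *C1qa*, *C1qb* and *C1qc*, complement genes made by macrophages. Without their 5 probe sets, a choice made after their values were seen, its share was 17.6%. Chromosome 4 had the highest share of 20 chromosomes, 14.1%, followed by X with 12.8%.

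**Figure D2:**
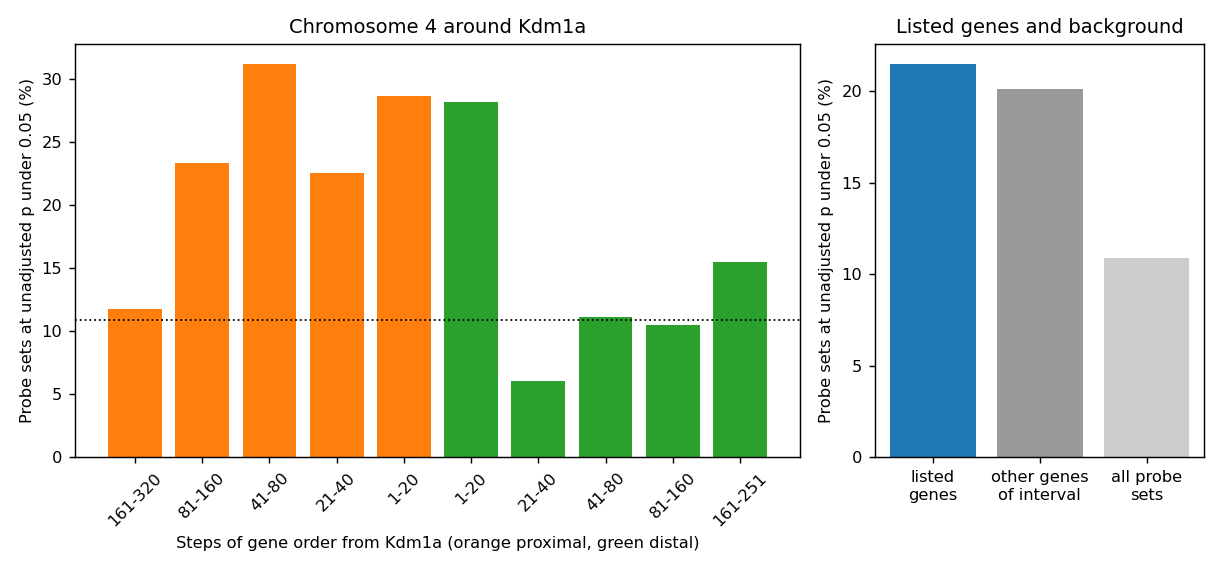
Share of probe sets at an unadjusted limma p under 0.05 (vertical axes, %), on the left by steps of gene order from *Kdm1a* with proximal blocks in orange and distal blocks in green, and on the right for listed genes, unlisted genes of the same interval and all probe sets. The dotted line marks the 10.9% of all probe sets, and the 4 proximal blocks up to 160 steps and the nearest distal block, at 22.5% to 31.2%, are the tallest bars.

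The unlisted genes of the interval showed a like share, 28 of 139 probe sets (20.1%) at an unadjusted p under 0.05, or 17.2% without the C1q genes. Those past the adjusted threshold were *Tcea3*, a transcription elongation factor gene 5 steps proximal, at -1.5 (standard error 0.13, limma adjusted p = 0.00191), and 1 of 4 probe sets of *Srsf10*, a splicing factor gene 16 steps proximal, at 0.76 (1449121_at, standard error 0.08, limma adjusted p = 0.00774). The brightest *Srsf10* probe set differed by -0.01 and the others by 0.45 and -0.28, none of which passed. Without 2lox/2lox heart 1 the passing *Srsf10* probe set differed by 0.70 and no longer passed (limma adjusted p = 0.0575). Both are not on the list, and the genes with the largest differences around *Kdm1a* are therefore not all listed.

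The upstream sequences of *Kdm1a* and of the listed genes with the smallest p that have a RefSeq entry are shown to place these genes, in GRCm38.p6. Each is 250 bases up to the annotated start, 5′ to 3′ on the gene's own strand. Where a gene has several entries, such as *Hnrnpr* with 2, only the most upstream start was used. Capitals mark a CCAAT box (CCAAT or ATTGG) or a GC box (GGGCGG or CCGCCC).
*Kdm1a*, chr4:136602724-136602973, minus strand: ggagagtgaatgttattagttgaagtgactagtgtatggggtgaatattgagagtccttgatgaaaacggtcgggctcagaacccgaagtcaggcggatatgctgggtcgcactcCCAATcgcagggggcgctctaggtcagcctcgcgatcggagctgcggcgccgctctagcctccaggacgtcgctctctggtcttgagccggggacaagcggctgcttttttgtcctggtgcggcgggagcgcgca
*Hnrnpr*, chr4:136310692-136310941, plus strand: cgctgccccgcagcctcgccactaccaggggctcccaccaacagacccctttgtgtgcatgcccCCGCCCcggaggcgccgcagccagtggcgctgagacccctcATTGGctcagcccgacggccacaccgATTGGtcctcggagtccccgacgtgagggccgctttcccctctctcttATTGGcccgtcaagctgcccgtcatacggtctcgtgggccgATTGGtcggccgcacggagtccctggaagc
*Pnrc2*, chr4:135873847-135874096, minus strand: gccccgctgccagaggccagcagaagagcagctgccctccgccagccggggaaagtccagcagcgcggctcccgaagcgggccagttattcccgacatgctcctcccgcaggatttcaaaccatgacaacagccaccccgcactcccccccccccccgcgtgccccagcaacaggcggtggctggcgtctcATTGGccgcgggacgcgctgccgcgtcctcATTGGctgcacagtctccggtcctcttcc
*Aunip*, chr4:134510749-134510998, plus strand: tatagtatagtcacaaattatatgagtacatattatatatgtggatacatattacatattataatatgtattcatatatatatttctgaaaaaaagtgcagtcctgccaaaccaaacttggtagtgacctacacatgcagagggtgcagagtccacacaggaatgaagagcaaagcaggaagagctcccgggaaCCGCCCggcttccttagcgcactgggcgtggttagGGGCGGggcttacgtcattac
*Hnrnpr* has 4 CCAAT boxes and 1 GC box, *Pnrc2* 2 CCAAT boxes, *Kdm1a* 1 CCAAT box and *Aunip* 2 GC boxes. Of 48 listed genes with an entry, 32 (66.7%) had a GC box on either strand and 37.5% a CCAAT box. Of 14369 measured genes, 7183 had a GC box and 35.8% a CCAAT box. A TATA box (TATAAA or TTTATA) was found in 4.17% and 9.01%. The median GC content was 64.6% against 57.6%. A match of letters is a description of the window, and the arrays do not measure binding there. *Necap2*, *Stmn1*, *Zbtb40* and *Zfp593* have no entry.

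Genes of the cytoskeleton, mitosis and GTPase signalling formed the largest group, with 12 genes and 24 probe sets. In this group 1 probe set passed the test (background 0.0798%), 5 from 4 genes (20.8%) were at an unadjusted p under 0.05 (background 10.9%), and the median difference was -0.06. *Aunip*, which encodes a partner of the mitotic kinase Aurora A and lies 36 steps proximal, read 6.74, 6.59, 6.84, 6.92 and 6.81 in the wild-type hearts and 5.92, 5.53 and 5.86 in the 2lox/2lox hearts. All 2lox/2lox hearts were well below the lowest wild-type heart. It fell by 1.01 on the log2 scale (standard error 0.10, limma adjusted p = 0.00434), and the adjusted p was at most 0.0236 when any 1 heart was left out. With the 3′ minus 5′ value of the control probe sets in the fit it differed by -0.96 and no longer passed (limma adjusted p = 0.16).

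*Rap1gap*, a GTPase-activating protein for the small GTPase Rap1 and 14 steps distal, read 5.94, 6.31, 6.31, 6.29 and 6.09 in wild-type and 6.62, 6.71 and 6.50 in 2lox/2lox hearts. The groups did not overlap, but the difference of 0.43 (standard error 0.10) did not pass (limma adjusted p = 0.209). *Capzb*, which caps the fast-growing end of actin filaments, had probe sets of opposite sign. Its brightest (1424168_a_at) differed by 0.15 and another (1453960_a_at) by -0.33, both at an unadjusted p under 0.05 and neither past the threshold. In the latter, 2lox/2lox hearts 1 and 2 read 10.34 and 10.45, and heart 3 read 10.94, inside the wild-type range of 10.80 to 11.03.

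*Cdc42*, a small GTPase that organises actin and 9 steps distal, differed by -0.24 in its brightest probe set (limma adjusted p = 0.39). Here too 2lox/2lox heart 3, at 12.03, lay within the wild-type range of 11.93 to 12.09, while hearts 1 and 2 read 11.61 and 11.70. Its other probe sets differed by -0.03, -0.09 and -0.06. *Asap3*, an Arf GTPase-activating protein 6 steps proximal, differed by -0.13 in a dim probe set (limma adjusted p = 0.459). *Stmn1*, *Clic4*, *Nudc*, *Rcc2*, *Sh3bgrl3*, *Arhgef10l* and *Necap2* had differences between -0.17 and 0.11, none of which passed.

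The group of ribosome and RNA genes had 7 genes and 23 probe sets, of which 1 passed (background 0.0798%). At an unadjusted p under 0.05 were 8 from 4 genes (34.8%, background 10.9%), 4 higher (background 5.97%) and 4 lower (background 4.94%). *Zfp593*, a zinc finger gene whose product takes part in ribosome assembly, lies 46 steps proximal. Its brighter probe set (1447703_x_at) read 6.98, 6.68, 6.78, 6.88 and 7.0 in wild-type and 6.10, 6.28 and 5.81 in 2lox/2lox hearts, with no overlap. It fell by 0.80 on the log2 scale (standard error 0.11, limma adjusted p = 0.0324). The suffix x marks a probe set in which some probes may also match other transcripts. The other probe set of the gene (1449946_a_at) differed by -0.14, which did not pass. Leaving out 2lox/2lox heart 1 or any wild-type heart ended the call, with an adjusted p of up to 0.138.

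*Pnrc2*, which links the nonsense-mediated decay factor Upf1 to decapping, lies 15 steps proximal. Its brightest probe set (1416187_s_at) read 9.898, 9.996, 9.983, 9.928 and 9.948 in wild-type and 9.317, 9.499 and 9.701 in 2lox/2lox hearts. The groups did not overlap, and the difference of -0.44 (standard error 0.08) did not pass (limma adjusted p = 0.119). Its next probe set (1416186_at) differed by -0.28 with overlap, and a dim one (1438766_at) by 0.17. The dim one read 4.22 in wild-type, near the lower quartile of all values, 4.21, and was not shown to be above background.

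*Hnrnpr*, an RNA-binding protein gene 3 steps proximal, had 5 probe sets. One of the dimmer ones (1438807_at) read 5.22, 5.47, 5.63, 5.48 and 5.70 in wild-type and 6.21, 6.51 and 5.91 in 2lox/2lox hearts. All 2lox/2lox hearts were above, and the difference of 0.71 (standard error 0.14) did not pass (limma adjusted p = 0.141). The dimmest (1429232_at) also separated the groups but in the other direction, at -0.21 (limma adjusted p = 0.23). It read 4.15 in wild-type, below the lower quartile of all values. The remaining 3 differed by -0.10, -0.16 and -0.12, none at an unadjusted p under 0.05.

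*Srrm1*, a splicing coactivator gene, had 7 probe sets with differences from -0.22 to 0.16, and 2 of them (0.16 and 0.15) were at an unadjusted p under 0.05. The probe set at 0.15 (1442330_at) read 3.99 in wild-type, below the lower quartile of all values, 4.21. That at -0.22 (1459828_at) read 4.25, near it. *Rpl11*, a ribosomal protein gene 9 steps proximal, differed by 0.00, *Syf2* by 0.01 and *Eif4g3* by -0.04 to 0.17, and none of these passed.

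**Figure D3:**
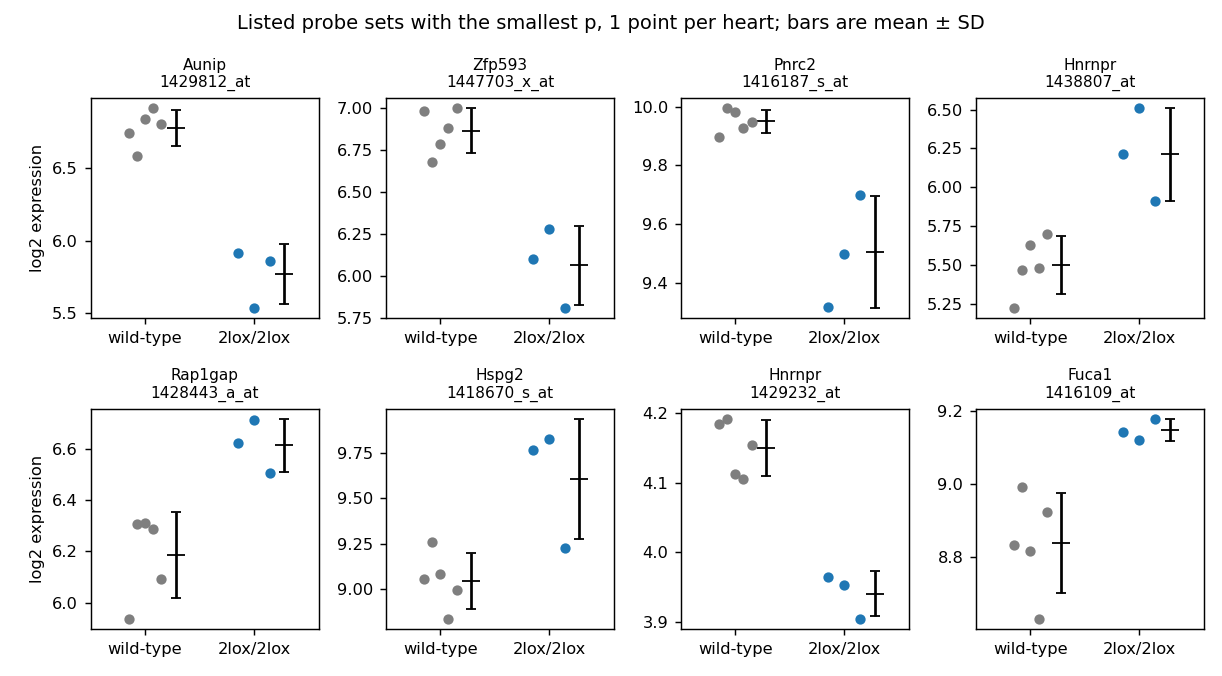
Log2 expression (vertical axes, a separate range in each panel that does not start at 0) of the 8 listed probe sets with the smallest p, with 1 point for each heart, wild-type in grey and 2lox/2lox in blue, and mean ± SD beside the points. *Aunip* and *Zfp593* passed the threshold, the groups overlap only in *Hspg2*, and the 2 *Hnrnpr* probe sets differ in opposite directions.

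The transcription and chromatin genes (8 genes, 14 probe sets) had no probe set past the threshold. At an unadjusted p under 0.05 were 4 (28.6%, background 10.9%), each with a positive difference (background 5.97%), and the group's median and direction were not tested. *Arid1a*, a subunit of the SWI/SNF chromatin remodelling complex and 55 steps proximal, read 9.66, 9.66 and 9.12 in the 2lox/2lox hearts in its second probe set (1417440_at) against 8.84 to 9.19 in wild-type. Heart 3 lay within the wild-type range, and the difference was 0.47 (limma adjusted p = 0.263). Its brightest probe set differed by -0.05. *E2f2*, a cell cycle transcription factor, differed by 0.30 without overlap (limma adjusted p = 0.327) and by 0.16 in its other probe set. *Zbtb40* differed by 0.22 and *Spen*, a corepressor needed for X inactivation, by 0.21, both with overlap. *Luzp1*, the nearest listed gene, differed by 0.11 and 0.02, and *Id3*, *Runx3* and *Hp1bp3* lay between -0.17 and 0.11.

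Genes of the endoplasmic reticulum, glycans and the lysosome (6 genes, 15 probe sets) had 3 probe sets of 15 at an unadjusted p under 0.05 (background 10.9%) and none past the threshold. *Fuca1*, a lysosomal fucosidase gene 13 steps proximal, read 8.83, 8.99, 8.81, 8.63 and 8.92 in wild-type and 9.14, 9.12 and 9.18 in 2lox/2lox hearts. All 2lox/2lox hearts were above, with a difference of 0.31 (limma adjusted p = 0.237), whereas its other probe sets differed by 0.12, -0.05 and -0.03. *Atp13a2*, a lysosomal polyamine transporter gene, differed by 0.23 without overlap in 1 of 3 probe sets. *Dhdds*, which makes the lipid carrier dolichol, differed by -0.40 without overlap in a dimmer probe set and by 0.09 in its brightest. *Man1c1*, *Ddost* and *Emc1* lay between -0.11 and 0.10.

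In the matrix, surface and secreted group (5 genes, 9 probe sets), 1 probe set (11.1%) was at an unadjusted p under 0.05, close to the background of 10.9%. It belongs to *Hspg2*, which encodes the basement membrane proteoglycan perlecan. The gene differed by 0.56 in 1418670_s_at (limma adjusted p = 0.228) and by 0.21 in its other probe set. Its 2lox/2lox hearts read 9.77, 9.83 and 9.22, the last of them within the wild-type range of 8.84 to 9.26. *Mfap2*, *Nbl1*, *Alpl* and *Ece1* lay between -0.20 and 0.19. Among the ubiquitin and mitochondrial genes (5 genes), 2 of 10 probe sets were at an unadjusted p under 0.05 (background 10.9%). *Usp48*, a deubiquitinase gene, differed by 0.28 without overlap in 1 of 3 probe sets (limma adjusted p = 0.297). *Mul1*, a mitochondrial ubiquitin ligase gene, differed by 0.44 with overlap in 1 of 2 (limma adjusted p = 0.359). *Pink1*, *Otud3* and *Ubr4* lay between -0.11 and 0.15.

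None of the 7 probe sets of the 4 cardiac and striated muscle genes was at an unadjusted p under 0.05. *Trim63*, a sarcomere-associated ubiquitin ligase gene, differed by 0.03, *Myom3* by 0.00 and *Rcan3* by -0.11 and -0.07. *Myom3* and the dimmer *Rcan3* probe set read 4.31 and 4.32 in wild-type, near the lower quartile of all values, 4.21. They were not shown to be above background. *Hspb7*, a small heat shock protein gene of heart muscle, differed by -0.51 in its brightest probe set with wide spread (limma unadjusted p = 0.28), and by 0.01 and -0.10 in its others. The Eph receptor genes *Epha8* and *Epha2* both differed by -0.05. The metabolic genes *Lypla2*, *Cda* and *Aldh4a1* differed by 0.02, 0.19 and -0.03.

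Probe sets of the same listed gene often disagreed in sign, as did those of most genes with several probe sets on the array. Of 30 listed genes with several probe sets, 11 (36.7%) had differences of the same sign throughout, against 43.9% of 9011 genes on the array. Among genes with exactly 2 probe sets it was 9 of 15, against 57.8%. The median range between the probe sets of a gene was 0.22 against 0.14. *Hnrnpr*, *Pnrc2* and *Capzb* each had probe sets at an unadjusted p under 0.05 in both directions, which makes 3 of 30 genes, against 0.899% on the array. In *Hnrnpr* and *Pnrc2* one direction came from a probe set near the lower quartile of all values. Over probe sets with a mean above the array's median, a limit chosen after the values were seen, *Capzb* alone of 26 listed genes (3.85%) had both directions, against 0.774% of 5165. Over these probe sets the signs were the same throughout in 42.3% of listed genes, against 52.9%. Among genes with 3 or more probe sets, 3 of 15 listed genes had both directions, against 1.67% of 4318. In these genes the signs were the same throughout in 2 of 15, against 28.9%.

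The difference between probe sets was tested by setting each further probe set against the brightest of its gene. None of the 55 listed pairs passed the adjusted threshold (background 0.0358% of 16763), while 15 from 12 genes (27.3%) were at an unadjusted p under 0.05, against 12.5%. The smallest p belonged to *Hnrnpr*, whose 1438807_at differed from the brightest by 0.81 (standard error 0.16, limma adjusted p = 0.212). *Zfp593* differed by 0.67 (limma adjusted p = 0.215) and *Dhdds* by -0.50 (limma adjusted p = 0.248). The *Pnrc2* pair also had a p under 0.001, but its further probe set was not shown to be above background, so no size is given. Across genes, the differences of the 2 brightest probe sets had a Pearson r of 0.28 over the 30 listed genes and 0.36 over the array. Genes are not independent replicates, and probe sets of a gene share the same hearts.

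**Figure D4:**
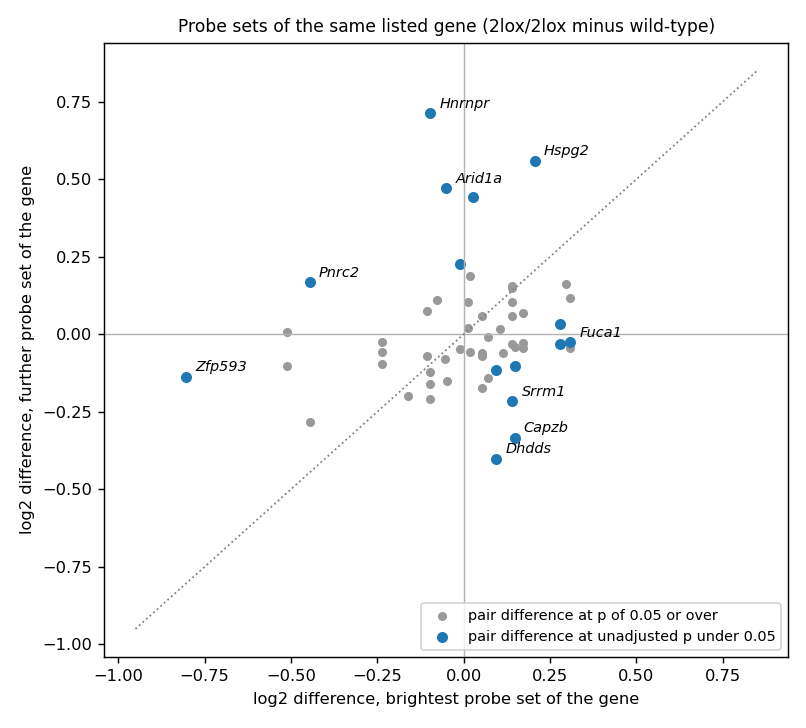
Log2 difference (2lox/2lox minus wild-type) of each further probe set (vertical axis) against that of the brightest probe set of the same listed gene (horizontal axis), with pairs at an unadjusted p under 0.05 for their difference in blue (those with the smallest p named) and equality as a dotted line. *Hnrnpr* and *Arid1a* lie high above the line with a brightest probe set near 0, and *Dhdds* and *Capzb* lie below it.

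The counts depended on single hearts. Without 2lox/2lox heart 3, 9 listed probe sets passed the adjusted threshold, when 1.77% of all did. They belonged to *Aunip*, *Pnrc2*, *Hspg2* (both probe sets), *Zfp593*, *Capzb*, *Hnrnpr*, *Arid1a* and *Cdc42*. Of the 23 listed probe sets at an unadjusted p under 0.05, heart 3 was the 2lox/2lox heart nearest the wild-type mean in 60.9%, against 66.7% of all probe sets at that p. When the control probe sets' 3′ minus 5′ value entered the fit, none of the listed probe sets passed and 13 (12.1%) were at an unadjusted p under 0.05, against 3.51% of all. In that fit *Aunip* differed by -0.96 and *Zfp593* by -0.98, while *Hspg2* 1418670_s_at differed by 0.23, *Hnrnpr* 1438807_at by 0.45 and *Pnrc2* 1416187_s_at by -0.29.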

How the data were processed

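The authors deposited normalized log2 expression values for 45101 probe sets. Limma is named in the submitters' notes. How probes were summarized and normalized is not stated in these sources, so low values may depend on an unknown background treatment. Groups came from the genotype labels. Each probe set was fitted with limma 3.58.1 in R 4.3.3 (lmFit, eBayes) as 2lox/2lox minus wild-type over all 8 hearts, two-sided. The Benjamini-Hochberg correction ran across the whole array, with 0.05 as the threshold for adjusted p-values. The script was tested on simulated data. Within a gene, each further probe set minus the brightest was fitted likewise over 16763 pairs. Genes came from the platform annotation, updated through a RefSeq table of GRCm38.p6 (99.4% of single-gene probe sets matched), which also gave gene order. The listed genes, role groups and marker lists were chosen with earlier results of these data known. The text names listed genes past the threshold, those at an unadjusted p under 0.05, the 3 nearest on either side, unlisted neighbours past the threshold, and other listed genes in their role group. *C1q* genes and *Fblim1* were named after their values were seen, and they are not among the named probe sets followed through the alternatives. The number of arrays limits the precision. Alternatives covered normalization, moderation, dim probe sets, covariates, a replicate block and leaving out each heart. Replicate numbers occur in both groups without a label that pairs hearts.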

Additional observations from a re-analysis of the deposited data

Results flagged for a closer look

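Of 31 wild-type groups of named probe sets, 2 held a heart far from the others, and chance flags about 1 in 20 groups. For *Capzb* 1424168_a_at, wild-type heart 2 read 11.18 against 11.31 to 11.33 in the other wild-type hearts. For *Zbtb40* 1455187_at, wild-type heart 4 read 5.35 against 5.61 to 5.69.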

How the results depend on the processing

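*Aunip* and *Zfp593* kept their direction in every alternative run, at -1.08 to -0.89 and -0.98 to -0.68. With each heart left out in turn, the listed probe sets past the threshold numbered 1 to 9, those at an unadjusted p under 0.05 18 to 31, the listed genes past it by their brightest probe set 1 to 5, and the unlisted neighbours past it 1 to 8. The probe set pairs past it numbered 0 to 7, and those at an unadjusted p under 0.05 9 to 26. The highest counts were those without 2lox/2lox heart 3. After median centring, 1 listed probe set passed, and 1 gene by its brightest probe set.

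Replicate numbers were not shown to pair the hearts. Deviations from the group means correlated at 0.01, -0.08 and -0.05 for numbers 1, 2 and 3. Between hearts of unlike number they correlated at -0.12 to 0.13. That spread includes the values above, so these correlations cannot decide whether hearts were paired. With the replicate number as a block, 0 listed probe sets, 0 genes and 0 unlisted neighbours passed by limma, as did 0 of all probe sets, and 15 listed probe sets were at an unadjusted p under 0.05 (14.0% against 7.43% of all). *Kdm1a* differed by -0.85 and -0.82 under the block, neither past the threshold. *Aunip* under the block differed by -0.96 (limma adjusted p = 0.103). Fewer degrees of freedom are part of that fit. With the 3′ minus 5′ covariate, 0 listed probe sets, 0 genes and 0 unlisted neighbours passed by limma, 13 listed probe sets were at an unadjusted p under 0.05, and *Kdm1a* 1426761_at was at -0.81, no longer past the threshold. The cause was not tested.

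Differences close to 0 changed sign in *Epha8* (0.015 with that covariate, and -0.095 to 0.0041 with each heart left out, positive without 2lox/2lox heart 2 or wild-type heart 4) and in *Hnrnpr* 1427129_a_at (0.014 with that covariate, and -0.16 to 0.011 with each heart left out, positive without 2lox/2lox heart 1). Of the remaining results for named probe sets, 485 kept their direction and side of the threshold, 16 no longer passed it and 6 came to pass it.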
